A study of Mus musculus with 8 samples.

Results

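The miR-29 family was followed in the kidneys of mice with unilateral ureteral obstruction (UUO), in which the ureter of 1 kidney is tied off, and of mice with sham surgery. The family was taken by name, as the mature mouse miRNAs mmu-miR-29a-3p, mmu-miR-29b-3p, mmu-miR-29c-3p, mmu-miR-29a-5p, mmu-miR-29b-1-5p, mmu-miR-29b-2-5p and mmu-miR-29c-5p, written below without the species prefix. All 7 were among the 1881 mouse miRNAs on the array, with 18 of its 4415 probes. The groups were UUO kidney (4 samples, UUO1 to UUO4) and Sham kidney (4 samples, Sham1, Sham2, Sham3 and Sham8). Both groups were male C57BL/6 mice, 8 weeks old, whose kidneys were collected 7 days after surgery. Each sample had 1 Agilent 1-colour miRNA array. The labels do not say in words that each sample came from a mouse of its own, so the p-values below measure the spread between these samples.

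miR-29 miRNAs repress genes of the extracellular matrix, among them collagens, fibrillin and elastin, by pairing through their seed, the bases near the 5′ end that recognise sites in messenger RNA. The family is known for its loss in fibrotic tissue, and the profibrotic cytokine TGF-β lowers it in kidney cells. It is made from 2 loci. In each locus a pair of hairpin precursors lies close together. From each hairpin the 3p arm is the main mature product and the 5p arm is the strand usually degraded.

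The mature sequences show which members can share targets. They are given 5′ to 3′ from RefSeq (GRCm38.p6), in which all 7 were matched, with the seed (bases 2 to 8) in capitals.
miR-29a-3p: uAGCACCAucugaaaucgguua
miR-29b-3p: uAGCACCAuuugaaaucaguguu
miR-29c-3p: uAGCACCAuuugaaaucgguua
miR-29a-5p: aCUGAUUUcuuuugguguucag
miR-29b-1-5p: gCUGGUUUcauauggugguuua
miR-29b-2-5p: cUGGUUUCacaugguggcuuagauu
miR-29c-5p: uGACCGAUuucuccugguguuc
The 3p arms share the seed AGCACCA, which is complementary to UGGUGCU, and no other of the 1679 mature names in the RefSeq table carries it. The 5p arms share a seed neither with the 3p arms nor with each other. Counting positions from 1 at the 5′ end, miR-29a-3p differs from miR-29c-3p by 1 base, C10U. miR-29c-3p differs from miR-29b-3p by 3 of 22 compared bases, G18A, U21G and A22U.

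The hairpins show where each arm comes from, with the mature arms in capitals (5p first).
Mir29a: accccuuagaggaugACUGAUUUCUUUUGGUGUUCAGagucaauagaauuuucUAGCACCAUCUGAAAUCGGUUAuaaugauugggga
Mir29b-1: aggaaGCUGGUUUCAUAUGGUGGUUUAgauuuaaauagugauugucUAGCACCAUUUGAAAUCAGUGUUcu
Mir29b-2: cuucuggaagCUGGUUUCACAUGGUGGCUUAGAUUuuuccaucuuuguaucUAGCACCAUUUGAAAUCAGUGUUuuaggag
Mir29c: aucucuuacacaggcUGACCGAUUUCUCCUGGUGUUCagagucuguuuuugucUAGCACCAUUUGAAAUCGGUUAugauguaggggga
Mir29a (chr6:31062660-31062747, minus strand, GRCm38.p6) and Mir29b-1 (chr6:31063023-31063093, minus strand) form the 29a/b-1 locus and lie 275 bases apart. They overlap no other gene in the RefSeq table. Mir29b-2 (chr1:195037040-195037120, plus strand) and Mir29c (chr1:195037547-195037634, plus strand) form the 29b-2/c locus and lie 426 bases apart, within the noncoding gene A330023F24Rik. miR-29b-3p has the same sequence from both loci, so its signal cannot be assigned to either. The other 6 members each come from 1 locus.

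Each miRNA had 2 or 4 probes on the array, which are complementary to it and end at different bases near its 5′ end. The probes that represent the 3p arms are shown because they set what can be told apart. They are 5′ to 3′ DNA, with the base at which those of miR-29a-3p and miR-29c-3p differ in capitals.
miR-29a-3p probe: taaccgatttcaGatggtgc
miR-29b-3p probe: aacactgatttcaaatggtgc
miR-29c-3p probe: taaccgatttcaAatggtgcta
They cover bases 3 to 22 of miR-29a-3p, 3 to 23 of miR-29b-3p and 1 to 22 of miR-29c-3p. How far each probe also binds the other members was not tested. Where it does, the measured changes are mixtures.

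Signals below are log2 of a probe's background-subtracted intensity relative to the array's 75th percentile. The percentile was taken over the 623 probes that were detected on every array, and was 435 to 482 in the UUO arrays and 394 to 413 in the Sham arrays before scaling. Detection required that over 50% of a probe's spots on the array stood well above background, and values under a floor of −4.89 were set to it. Between 740 and 800 probes were detected on the UUO arrays and between 720 and 754 on the Sham arrays. All 8 arrays lay on 1 slide with 1 scan time, the Sham arrays in slide row 1 and the UUO arrays in row 2. Row and group cannot be told apart. Signals of different probes depend on the probe and are not compared as levels.

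All 6 members that could be tested were lower in UUO kidneys, from 1.19-fold for miR-29a-5p to 2.00-fold for miR-29c-5p. Each of the 6 was called lower by limma at an adjusted p under 0.05 (Benjamini-Hochberg over the 408 miRNAs detected on at least 4 arrays), and none was called higher. Of all 408, 27.7% were called lower and 39.7% higher. The 4 UUO values lay below the 4 Sham values for each of the 6, as they did for 26.2% of all tested miRNAs. The median log2 fold change of the 6 was −0.60, against 0.06 over all 408. In whole kidney, fewer cells of the kind that hold a miRNA and less of it per cell cannot be told apart.

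Among the 3p arms, the strands that carry the collagen-targeting seed, miR-29c-3p fell most. Its log2 signal was 2.29, 2.42, 2.31 and 2.07 in UUO1 to UUO4, against 3.17, 3.17, 3.13 and 3.27 in Sham1, Sham2, Sham3 and Sham8. The groups were far apart, with UUO4 the lowest array. miR-29c-3p was 1.88-fold lower (log2 fold change −0.91 ± 0.08 (SE), limma adjusted p = 2.01e-05). Only 6.86% of the tested miRNAs were called lower with a change at least as large, counting miR-29c-3p itself.

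miR-29b-3p, the arm that both loci encode, had log2 signals of 3.42, 3.54, 3.40 and 3.26 in the UUO samples, against 4.08, 4.06, 4.04 and 4.16 in the Sham samples. The groups did not overlap, and UUO4 was again the lowest array. miR-29b-3p was 1.60-fold lower (−0.68 ± 0.07 (SE), limma adjusted p = 3.93e-05).

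miR-29a-3p, from the 29a/b-1 locus, had log2 signals of 3.74, 3.82, 3.72 and 3.65 in the UUO samples, against 4.31, 4.19, 4.15 and 4.38 in the Sham samples. Here the Sham arrays were split, with Sham1 and Sham8 above Sham2 and Sham3, yet all lay above every UUO array. miR-29a-3p was 1.44-fold lower (−0.53 ± 0.07 (SE), limma adjusted p = 0.000187). The fold change of miR-29b-3p lay between those of the arms made from 1 locus only. With quantile normalization it did not, at −0.41 against −0.60 for miR-29a-3p and −0.77 for miR-29c-3p. Under that setting the shorter probes gave −0.72 for miR-29b-3p, −0.13 for miR-29a-3p and −0.75 for miR-29c-3p. The differences between miR-29b-3p and miR-29a-3p or miR-29c-3p were not tested.

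The 5p arms were measured much closer to background. miR-29c-5p fell most of the tested members. Its log2 signal was −3.46, −3.25, −3.35 and −3.60 in the UUO samples, against −2.45, −2.40, −2.42 and −2.39 in the Sham samples. The Sham arrays lay close together and the UUO arrays spread more widely, with UUO4 lowest. miR-29c-5p was 2.00-fold lower (log2 fold change −1.0 ± 0.08 (SE), limma adjusted p = 9.32e-06).

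miR-29b-1-5p, the 5p arm of the Mir29b-1 hairpin, was close to the floor in UUO. Its log2 signal was −4.69, −4.67, −4.84 and −4.70 in the UUO samples, against −4.09, −4.42, −4.36 and −4.26 in the Sham samples. The scaled groups did not overlap, with Sham1 highest. Before scaling its intensity was 18.7, 17.1, 16.1 and 18.5 in the UUO samples, against 24.2, 18.4, 19.7 and 21.6 in the Sham samples. Those unscaled groups overlapped by Sham2, and without scaling the change was −0.24 (limma adjusted p = 0.0450). With the scaling, miR-29b-1-5p lay lower in every UUO array. It was 1.36-fold lower (−0.44 ± 0.08 (SE), limma adjusted p = 0.00139).

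miR-29a-5p had log2 signals of −4.57, −4.41, −4.46 and −4.53 in the UUO samples, against −4.24, −4.34, −4.21 and −4.16 in the Sham samples. UUO2 and Sham2, the nearest arrays of the groups, differed by less than the range within either group. It was 1.19-fold lower (−0.25 ± 0.06 (SE), limma adjusted p = 0.00503). Before scaling its intensity was 20.3, 20.5, 21.0 and 20.8 in the UUO samples, against 21.9, 19.4, 21.8 and 23.1 in the Sham samples. Those unscaled groups overlapped, and without scaling the change was −0.06 (limma adjusted p = 0.408). The lower value of miR-29a-5p therefore rests on the scaling.

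**Figure D1:**
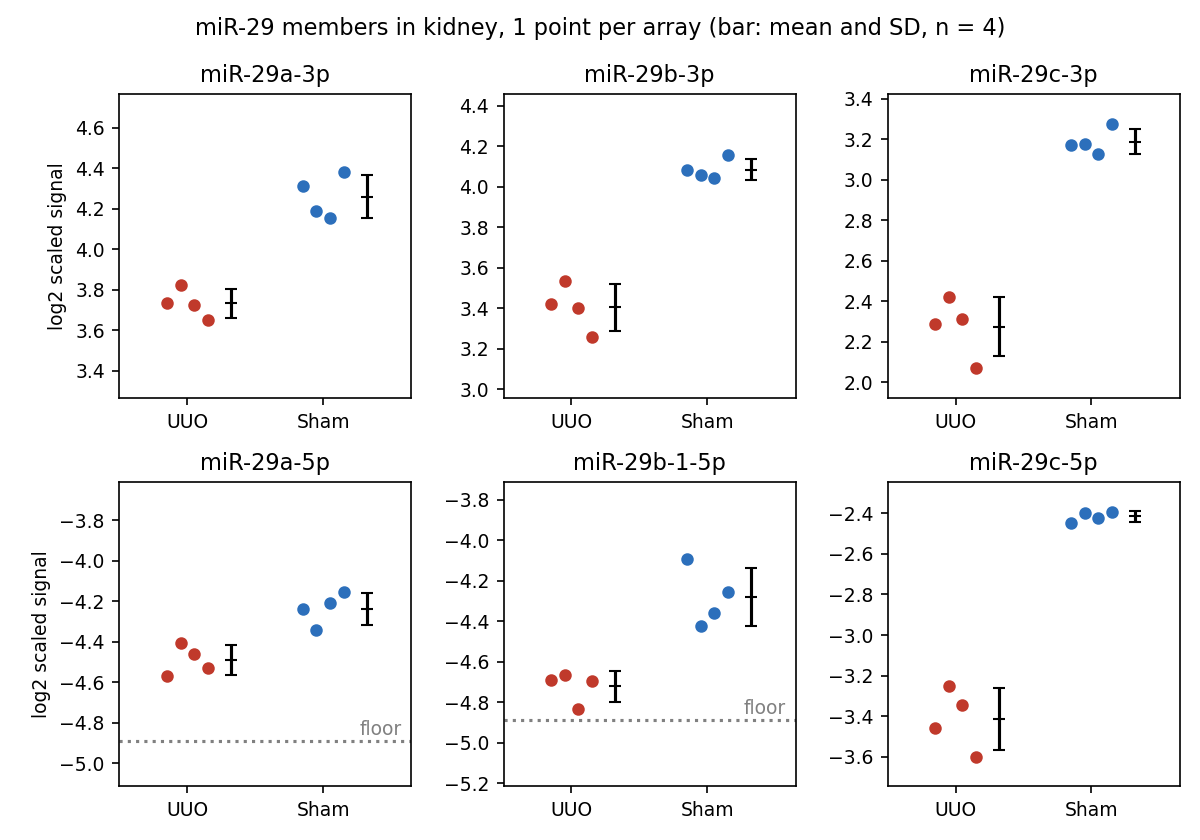
Log2 scaled signal of the representing probe of the 6 tested members, 1 point per array, with UUO left of Sham; bars give the mean and SD of 4 arrays, every panel spans 1.5 log2 units, and the dotted line is the floor of −4.89. In each panel the 4 UUO arrays lie below the 4 Sham arrays, with the widest gaps for miR-29c-3p and miR-29c-5p.

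miR-29b-2-5p, the 5p arm of the Mir29b-2 hairpin, was detected on no array and was not tested. Its brighter probe gave intensities of 0.447, 1.96, 0.952 and 0.545 in the UUO samples, against 3.01, 2.71, 1.97 and 2.89 in the Sham samples. All of these were far under the floor, which corresponds to intensities of 13.3 to 16.3 depending on the array. Both of its probes are short, with 17 and 18 bases, and leave bases 1 to 7 of the miRNA uncovered.

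With the percentile scaling, the probes of 1 miRNA gave closely similar changes where more than 1 was detected. Of the 18 probes, 10 were detected on all 8 arrays and all 10 were called lower (limma, adjusted over the 771 probes tested). Of those 771 probes, 27.2% were called lower and 41.1% higher. The UUO values lay below the Sham values for each of the 10 probes, as for 25.6% of the 771. The log2 fold changes of the shorter and the longer probe were −0.46 ± 0.07 and −0.53 ± 0.07 (SE) for miR-29a-3p and −0.63 ± 0.07 and −0.68 ± 0.07 for miR-29b-3p. They were −0.94 ± 0.08 and −0.91 ± 0.08 for miR-29c-3p and −0.98 ± 0.08 and −1.0 ± 0.08 for miR-29c-5p. With quantile normalization the shorter and the longer probe were less alike for miR-29a-3p (−0.13 and −0.60) and miR-29b-3p (−0.72 and −0.41). The values there were −0.75 and −0.77 for miR-29c-3p and −1.19 and −1.29 for miR-29c-5p. In every array the replicate spots of the 6 probes to the 3p arms had a coefficient of variation of 1.00 to 4.19%.

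For miR-29a-5p and miR-29b-1-5p only the probe of 22 bases, which covers the whole miRNA, was detected on all arrays.
miR-29a-5p probe: ctgaacaccaaaagaaatcagt
miR-29b-1-5p probe: taaaccaccatatgaaaccagc
The miR-29b-1-5p probe averaged an intensity of 17.6 ± 1.21 in UUO and 21.0 ± 2.52 in Sham (SD, n = 4 each). The probe shorter by 1 base averaged 8.80 ± 1.47 in UUO and 11.5 ± 2.63 in Sham and was detected only on Sham8. The corresponding shorter probe of miR-29a-5p averaged 4.94 ± 0.868 in UUO and 5.32 ± 0.958 in Sham and was detected on no array. For these 2 members no second detected probe was therefore at hand, and their spots varied by up to 25.8% within an array.

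**Figure D2:**
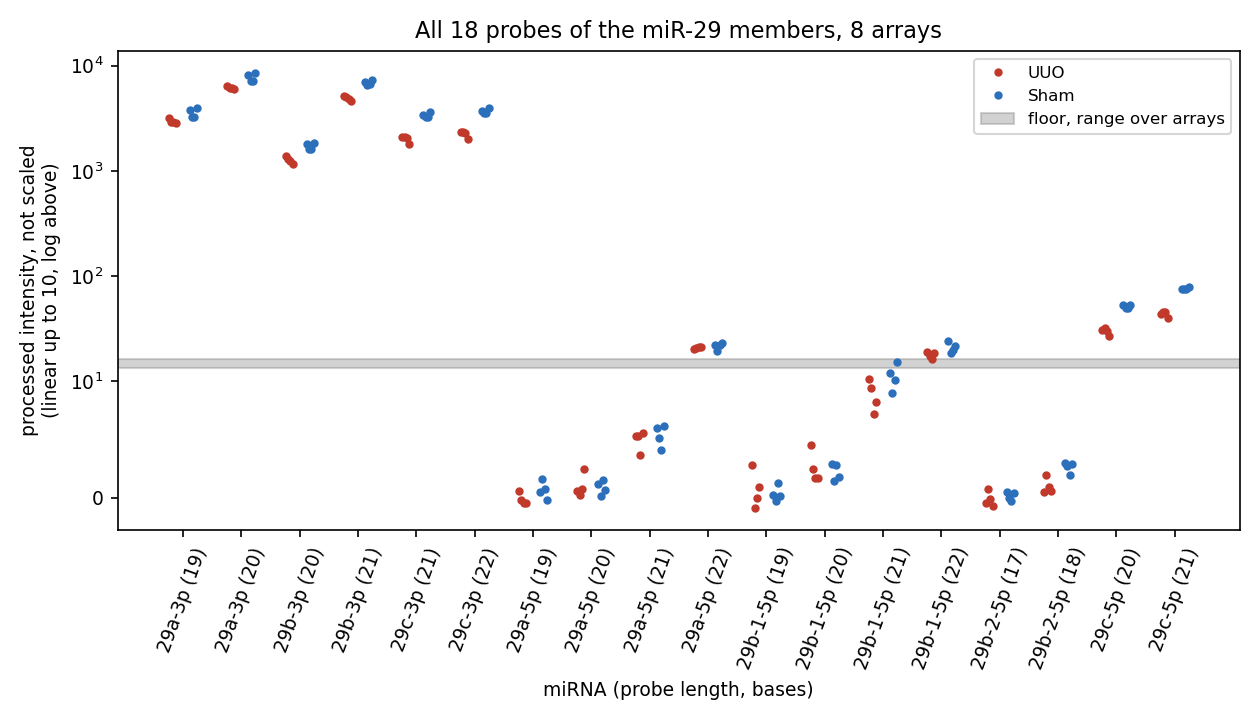
Processed intensity before scaling (linear up to 10, logarithmic above) of all 18 probes of the 7 members, with 4 UUO arrays left of 4 Sham arrays for each probe; the grey band is the range over arrays of the intensity that corresponds to the floor. The 6 probes to the 3p arms and both probes of miR-29c-5p lie clear of the band, the longest probes of miR-29a-5p and miR-29b-1-5p lie just above it, and both probes of miR-29b-2-5p lie below.

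The loci were compared through log ratios of members on the same array, which do not depend on a scaling factor per array. For the 3p arms, the log2 ratio of miR-29c-3p over miR-29a-3p was −1.45, −1.40, −1.41 and −1.58 in the UUO samples, against −1.14, −1.02, −1.03 and −1.11 in the Sham samples. The groups did not overlap. The ratio was lower by 0.39 in UUO (UUO minus Sham −0.39 ± 0.05 (SE), n = 4 each). An exact 2-sided permutation test over 70 assignments of the arrays gave p = 0.0286, the smallest this design allows, and p = 0.0381 after Benjamini-Hochberg adjustment over the 4 ratios tested. miR-29c-3p thus fell more than miR-29a-3p. With quantile normalization, which is not a factor per array, the difference between the representing probes was −0.17 (exact permutation, adjusted p = 0.143). Under that setting the shorter probes changed by −0.75 for miR-29c-3p and −0.13 for miR-29a-3p, and their ratio was not tested. With the percentile scaling and any 1 UUO array left out, the difference was −0.41 to −0.35 and the exact p stayed at 0.0286. The adjusted p was then 0.0571, since fewer of the 4 ratios reached the smallest p.

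For the 5p arms, the log2 ratio of miR-29c-5p over miR-29a-5p was 1.11, 1.15, 1.11 and 0.93 in the UUO samples, against 1.79, 1.95, 1.79 and 1.77 in the Sham samples. The difference was −0.75 ± 0.07 (SE), with exact permutation p = 0.0286 and adjusted p = 0.0381. By measured signal, miR-29c-5p from the 29b-2/c locus thus also fell more than miR-29a-5p. How far nearness to background shaped this ratio was not tested. With normexp background correction the difference was −0.38 (exact permutation, adjusted p = 0.0286). The denominator lies close to the floor, and without any 1 UUO array the exact p again stayed at 0.0286 with an adjusted p of 0.0571. The third locus pair, miR-29b-2-5p over miR-29b-1-5p, could not be tested because miR-29b-2-5p was not detected.

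As a description over the detected members of each locus, the mean log2 fold change was −0.96 for the 29b-2/c locus (miR-29c-3p and miR-29c-5p) and −0.41 for the 29a/b-1 locus (miR-29a-3p, miR-29a-5p and miR-29b-1-5p). The 29a/b-1 mean includes miR-29a-5p and miR-29b-1-5p, whose signals lie close to the floor. The locus means differed by −0.55 (UUO minus Sham), against −0.39 for the ratio of the 3p arms alone. Because miR-29b-2-5p was below detection and miR-29b-3p is shared, the values for the 29b-2/c locus are those of the Mir29c hairpin alone.

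**Figure D3:**
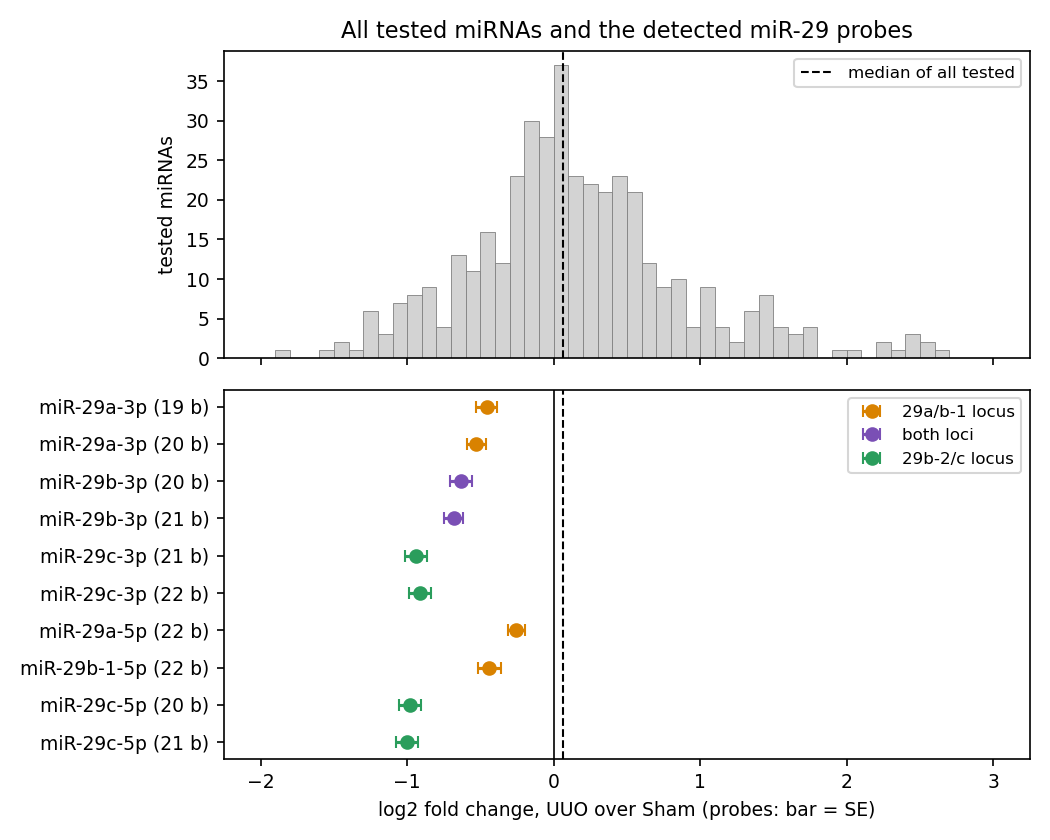
Top, distribution of the log2 fold changes (UUO over Sham) of the 408 tested miRNAs in bins of 0.1; bottom, the 10 detected probes of the miR-29 members with SE, coloured by locus and labelled with the probe length in bases (b). The probes of the 29b-2/c locus lie near −1, those of the 29a/b-1 locus between −0.53 and −0.25, those of miR-29b-3p between them, and the dashed line is the median of all tested at 0.06.

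The arms of a hairpin were compared in the same way. In Mir29a, the log2 ratio of miR-29a-3p over miR-29a-5p was 8.31, 8.23, 8.18 and 8.18 in the UUO samples, against 8.55, 8.53, 8.37 and 8.54 in the Sham samples. By measured signal, the 3p arm fell more than the 5p arm, with a difference of −0.27 ± 0.05 (SE), exact permutation p = 0.0286 and adjusted p = 0.0381. The miR-29a-5p denominator lies close to the floor, and with a doubled floor, at which it sat on all arrays, the difference was −0.53. Leaving out any 1 UUO array took the exact p to 0.0571 and the adjusted p to between 0.0571 and 0.0762. In Mir29c, the log2 ratio of miR-29c-3p over miR-29c-5p was 5.75, 5.67, 5.66 and 5.67 in the UUO samples, against 5.62, 5.57, 5.55 and 5.66 in the Sham samples. Here the groups overlapped by Sham8, and the difference of 0.09 ± 0.03 (SE) did not pass (exact permutation p = 0.0571, adjusted p = 0.0571). With normexp background correction its sign turned (−0.31, exact permutation, adjusted p = 0.0286).

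**Figure D4:**
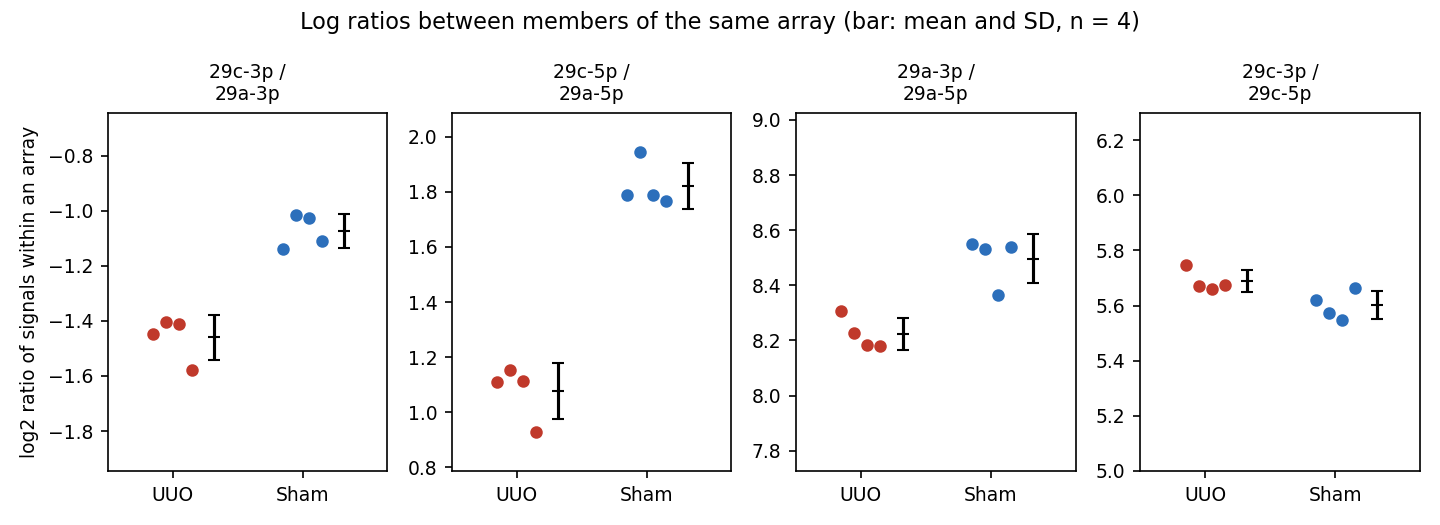
Log2 ratio of the signals of 2 members on the same array, 1 point per array with UUO left of Sham; bars give the mean and SD of 4 arrays and every panel spans 1.3 log2 units. The ratios of the 29b-2/c member over the 29a/b-1 member (left pair of panels) and of miR-29a-3p over miR-29a-5p are lower in UUO without overlap, while those of miR-29c-3p over miR-29c-5p overlap.

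The size of every member's change differed between processing settings. Of the 8 settings compared, 4 differ only in the factor that scales each array. The other 4 are quantile normalization, normexp background correction, the total intensity per miRNA and the deposited ratios. The total intensity and the deposited ratios also change the summary over probes, the miRNAs tested and the factor per array. Total intensities were scaled here to their own 75th percentile, and the deposited ratios carry the authors' factor. Without scaling, the change of miR-29c-3p was −0.72 both in total intensity and in the signal of its representing probe. Over the 4 scaling factors miR-29c-3p ran from −0.91 to −0.63, miR-29b-3p from −0.68 to −0.40 and miR-29a-3p from −0.53 to −0.24. Over all 8 settings the log2 fold change ran from −1.26 to −0.63 for miR-29c-3p, from −1.01 to −0.40 for miR-29b-3p, from −0.84 to −0.24 for miR-29a-3p and from −1.33 to −0.56 for miR-29c-5p, and these 4 were called lower in all 8. miR-29b-1-5p ran from −1.09 to −0.16 and was called lower in 7. miR-29a-5p ran from −0.59 to 0.03 and was called lower in 5. The sign of miR-29a-5p turned when arrays were scaled to the control features that the files name dmr. The median of all tested miRNAs ranged over the same 8 settings from −0.23 to 0.34. Of all tested miRNAs, 15.4% were called lower with the dmr control features, 18.9% without scaling, 20.6% with the 75th percentile over all mouse probes and 38.2% with normexp correction. The share called lower was 39.2% with quantile normalization, 43.5% with the total intensity per miRNA and 41.5% with the deposited ratios. The shares called higher were, in the same order, 58.6%, 52.0%, 47.5%, 29.9%, 30.1%, 21.8% and 23.6%. Relative to the median of all tested miRNAs, miR-29c-3p lay between −1.03 and −0.73, miR-29b-3p between −0.78 and −0.37, and miR-29a-3p between −0.61 and −0.47.

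**Figure D5:**
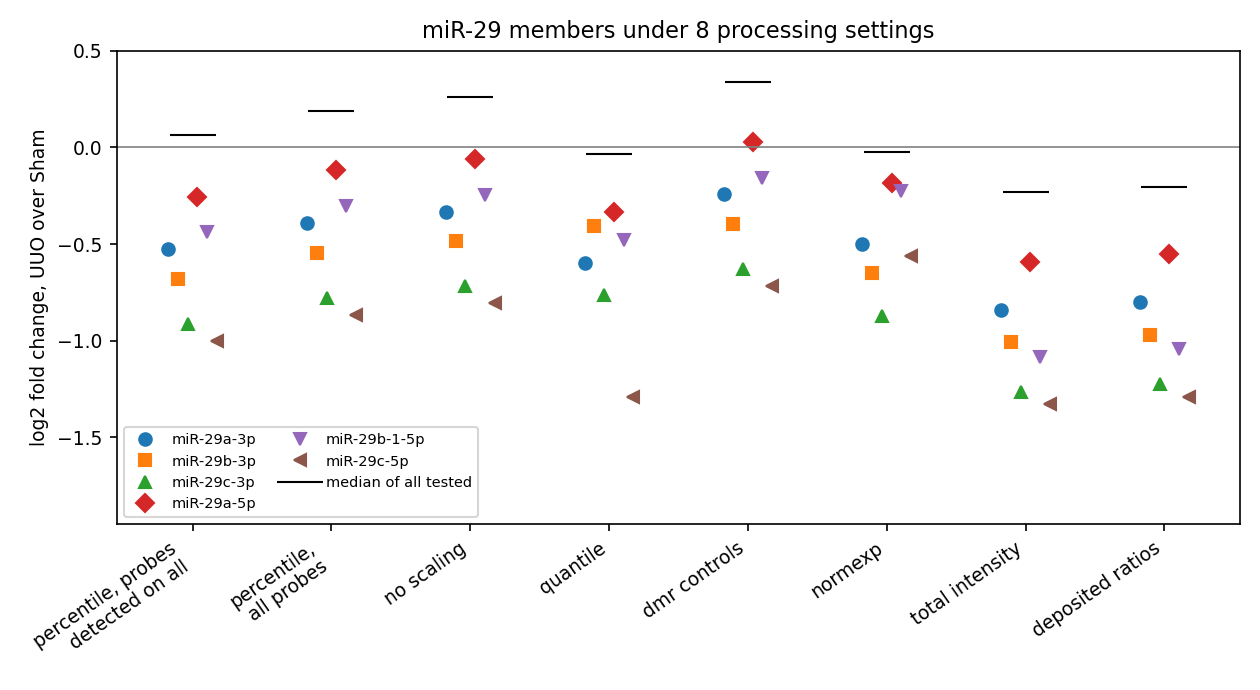
Log2 fold change (UUO over Sham) of the 6 tested members under 8 processing settings; the black dash is the median of all tested miRNAs under that setting. Every member lies below that median in all 8, and of the members only miR-29a-5p with the dmr control features lies above 0.

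The authors' deposited ratio table, in which each miRNA is divided by its median over the arrays, held larger differences. In it miR-29c-3p had ratios of 0.639, 0.719, 0.670 and 0.529 in UUO1 to UUO4, against 1.39, 1.53, 1.51 and 1.50 in Sham1, Sham2, Sham3 and Sham8. miR-29a-3p had 0.738, 0.794, 0.749 and 0.659 in UUO, against 1.26, 1.26, 1.26 and 1.34 in Sham. In that table the undetected miR-29b-2-5p also differed between the groups, with 0.809, 0.903, 0.867 and 0.766 in UUO and 1.11, 1.26, 1.28 and 1.11 in Sham. Its underlying total intensity was 0.1, the software's value for no detected probe, on every array. For such miRNAs the deposited ratios therefore show the factor applied to each array and no measured signal. The factor also entered the values of detected members. The log2 difference between UUO and Sham was −1.22 in the deposited ratios of miR-29c-3p and −0.72 in its total intensity without that factor or any other scaling. For miR-29a-3p it was −0.80 in the deposited ratios and −0.29 in the total intensity.

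The miRNAs whose signals followed the 3p arms most closely over the 8 arrays were other miRNAs that were lower in UUO. miR-200a-3p, an epithelial miRNA, had the highest Pearson correlation with miR-29a-3p (r = 0.996), followed by miR-30a-5p (0.994) and miR-30a-3p (0.994). For miR-29b-3p they were miR-26b-5p, let-7g-5p and miR-219a-5p (each 0.997). For miR-29c-3p they were miR-219a-5p, miR-193a-3p and miR-378a-3p (0.998, 0.998 and 0.997). After centring on each miRNA's mean, the root mean square difference from the 3p arm was smallest for miR-378a-3p (0.0399 log2 units, from miR-29c-3p) and largest for miR-193a-3p (0.200, from miR-29c-3p) among these 9 pairs. With 8 arrays in 2 groups these correlations mainly carry the difference between the groups. The change of miR-378a-3p (−0.96 ± 0.07 (SE), limma adjusted p = 5.52e-06) was close in size to that of miR-29c-3p, whereas miR-193a-3p changed more (−1.30 ± 0.10, adjusted p = 1.08e-05) and miR-219a-5p less (−0.58 ± 0.06, adjusted p = 6.39e-05). Among the members, r with miR-29c-3p was 0.999 for miR-29b-3p, 0.996 for miR-29c-5p and 0.983 for miR-29a-3p.

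Other miRNAs linked to TGF-β signalling or the matrix did not move as 1 group. Of 19 listed, 16 were tested, 3 were called higher and 7 lower, and their median log2 fold change was −0.12. Of all tested miRNAs, 39.7% were called higher and 27.7% lower. The balance of the list turned with the scaling, to 7 higher and 3 lower with the dmr control features and to 6 higher and 4 lower without scaling. miR-21a-5p, induced by TGF-β in fibrosis, rose most (2.56 ± 0.04 (SE), limma adjusted p = 3.2e-09), followed by miR-214-3p (2.42 ± 0.06) and miR-199a-5p (1.95 ± 0.07), which are miRNAs of fibroblasts. miR-192-5p, a miRNA of kidney tubules, fell by 1.14 ± 0.11 on the log2 scale, miR-30c-5p, which targets connective tissue growth factor, by 1.08 ± 0.07, and miR-101a-3p by 0.64 ± 0.07. The changes of miR-29c-3p and miR-29c-5p were thus of similar size to those of miR-192-5p and miR-30c-5p, and that of miR-29a-3p was smaller.

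Markers of other cells moved with the groups, and their counts are read beside the 39.7% of all tested miRNAs called higher and the 27.7% called lower. All 7 leukocyte miRNAs listed rose, and the sum of their scaled signals was 8.16 to 9.23 in UUO and 2.19 to 2.65 in Sham. Among them miR-511-3p was detected on 4 UUO and 0 Sham arrays, so it was tested only through the group where it was high. Each such sum mostly follows the brightest probes of its list. Of the 5 fibroblast and smooth muscle miRNAs 4 rose, with sums of 13.5 to 15.5 in UUO and 5.38 to 5.99 in Sham. Of the 7 kidney epithelium miRNAs, all detected on the 8 arrays, 4 fell and 3 were not called, with sums of 32.8 to 37.9 in UUO and 50.8 to 54.9 in Sham. Of the endothelial pair 1 fell, with sums of 10.7 to 12.4 in UUO and 12.5 to 13.2 in Sham. Most of that sum is miR-126a-3p, the member of the pair that was not called (−0.14 ± 0.06 (SE), limma adjusted p = 0.0578). Of 3 red blood cell miRNAs 2 fell, with sums of 2.12 to 3.84 in UUO and 3.71 to 5.46 in Sham. None of the 3 striated muscle miRNAs was called, and miR-122-5p, a miRNA of liver, was detected on 0 UUO and 4 Sham arrays. All UUO values of miR-122-5p sat at the floor, so it too was tested only through the group where it was high. It was called lower (−1.05 ± 0.10 (SE), limma adjusted p = 2.84e-05). Over the 8 processing settings 6 to 7 leukocyte and 3 to 4 fibroblast and smooth muscle miRNAs were called higher, with 0 to 1 of the fibroblast list lower. Of the kidney epithelium list 3 to 6 were called lower and 0 to 3 higher, with 3 in each direction for the dmr control features. The endothelial pair had 0 to 2 lower and 0 to 1 higher. The brightest of each of the larger lists were miR-142a-3p (2.28 ± 0.07 (SE), log2), miR-199a-3p (1.80 ± 0.07) and miR-30a-5p (−0.75 ± 0.07). The 3 kidney epithelium miRNAs not called did not share the fall of miR-30a-5p. They were miR-200c-3p (0.25 ± 0.12), miR-204-5p (0.10 ± 0.05) and miR-10a-5p (0.0008 ± 0.09). The part of such shifts in cell makeup in the change of the miR-29 members was not tested.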

How the data were processed

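Total RNA of 8 kidney samples was dephosphorylated, labelled with Cy3 at the 3′ end and hybridized to a 1-colour Agilent miRNA array, per the labels' protocols. Agilent Feature Extraction 10.7.3.1 produced the deposited intensities, with a background surface subtracted and probe positions on mm9, per the file headers. These intensities carry no normalization between arrays. A deposited table holds the authors' ratio for each miRNA and array. The ratio was found to be the miRNA's total intensity scaled by 1 factor for the array and divided by the miRNA's median, and no source used here gives the basis of that factor.

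Outlier spots (2.64 to 2.95% per array) were left out, spots of a probe were averaged, arrays were scaled and floored as described above, and log2 was taken. Of several probes for a miRNA, the one with the highest mean signal was used. UUO and Sham were compared in R 4.3.3 by limma 3.58.1 (lmFit, eBayes), fitting group alone, which was tested on simulated data, and ratios within arrays with an exact permutation test. No spot was saturated. The number of arrays limits the precision. Sequences came from RefSeq tables (GRCm38.p6) and the arrays' probe column.

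The members, the marker and matrix lists, the tests and the alternatives were chosen with earlier results of these data known. The miRNAs named were all members, the 3 most correlated with each 3p arm, the 3 largest called changes in each direction of the matrix list and the brightest marker of the 3 longest cell type lists. miR-122-5p was named as the only listed liver miRNA and miR-511-3p as the leukocyte miRNA detected in UUO only. miR-126a-3p and the kidney epithelium miRNAs not called were named beside the counts of their lists. Replicate numbers 1 to 3 occur in both groups, and deviations of same-numbered arrays correlated at −0.000808, 0.124 and −0.303, so the numbers were not taken as pairs.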

Additional observations from a re-analysis of the deposited data

Results flagged for a closer look

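Of 28 groups of 4 arrays checked for an array far from the others, 3 held 1, and chance gives about 5% of such groups. The log2 ratio of miR-29c-5p over miR-29a-5p was highest among the Sham samples in Sham2, at 1.95. The log2 ratio of miR-29a-3p over miR-29a-5p was lowest among the Sham samples in Sham3, at 8.37. The log2 ratio of miR-29c-3p over miR-29c-5p was highest among the UUO samples in UUO1, at 5.75. Without the array named, the UUO minus Sham differences of these 3 ratios were −0.71, −0.32 and 0.07, against −0.75, −0.27 and 0.09 with all arrays.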

How the results depend on the processing

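Of 24 alternatives, miR-29a-3p, miR-29b-3p, miR-29c-3p and miR-29c-5p were called lower in all 24. miR-29a-5p was called lower in 19 and miR-29b-1-5p in 22. For miR-29a-5p the value was 0.029 with the dmr control features (limma adjusted p = 0.700) and −0.12 with the 75th percentile over all probes. With a doubled floor both of these 5p arms sat at the floor. The shorter miR-29a-3p probe was not called with the dmr control features (−0.17, limma adjusted p = 0.0865). The number of all tested miRNAs called lower was 63 with the dmr control features, 217 with the total intensity per miRNA and 207 with the deposited ratios, against 113. On the matrix-linked list 6 miRNAs were called higher with the all-probe percentile, 6 without scaling and 7 with the dmr control features, and 4 were called lower without scaling and 3 with the dmr control features. With 1 array left out, 3 to 5 of that list were called higher. The log2 ratio of miR-29c-3p over miR-29a-3p differed by −0.17 with quantile normalization, and that of miR-29c-3p over miR-29c-5p by 0.52 with quantile normalization (exact permutation, adjusted p = 0.0381) and −0.31 with normexp. The cause of these changes was not tested. With 1 array left out, the ratio differences were −0.41 to −0.35 for miR-29c-3p over miR-29a-3p, −0.77 to −0.70 for miR-29c-5p over miR-29a-5p, −0.32 to −0.26 for miR-29a-3p over miR-29a-5p and 0.067 to 0.11 for miR-29c-3p over miR-29c-5p, where leaving out Sham8 gave 0.11 (exact permutation, adjusted p = 0.0286).

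With the replicate number as a block, over the 6 arrays that share numbers 1 to 3, 5 members were called lower and miR-29a-5p was not (−0.21, limma adjusted p = 0.0847). Over all miRNAs 84 were then called lower and 142 higher. Chosen after seeing the data were the counts of the marker lists under the 8 settings and the same 6 arrays without the block, which gave 6 members, 98 lower and 146 higher. The blocked ratio differences were −0.36, −0.72, −0.24 and 0.11 in the order above. Signal close to background limits miR-29a-5p, miR-29b-1-5p and miR-29b-2-5p.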
